A study of Canis lupus familiaris with 5 samples.

Results

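USP37, CTACK, TBC1D2B, SERPINF1 and NFIC are 5 dog genes with a strong binding site of canine DUXC at which human DUX4 had no overlapping site. They were chosen by symbol from results of these same data, for a high fold enrichment in the DUXC peak list and for the missing overlap, so both of these are descriptions here and support nothing. A peak belonged to a gene when the gene was the nearest one named beside it by the authors, by its dog symbol or else by that of its human homolog. The peak lists named 10804 genes in all. The 5 genes held 8 peaks: 7 of the 6031 DUXC peaks, 1 of the 85825 DUX4 peaks and 0 of the 561 peaks of the isoform DUXC-ALT. A DUXC peak was called strong at a fold enrichment of at least 10, which 766 DUXC peaks reached (12.7% of the list). Of the 7 DUXC peaks, 6 were strong, and these 6 are the sites described here.

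The peaks come from chromatin immunoprecipitation and sequencing (ChIP-seq) in immortalized canine myoblasts, precursor cells of skeletal muscle. Each line carried 1 transgene: human DUX4 (monoclonal line, doxycycline inducible), canine DUXC (monoclonal, inducible), canine DUXC-ALT (polyclonal, inducible), or luciferase in a polyclonal and in a monoclonal line labelled as not inducible. Per the labels, induction was with 1 µg/ml doxycycline for 24 hours, and in the canine proteins the C-terminal domain was replaced by that of human DUX4, which the rabbit antiserum recognizes. Each factor had 1 library from 1 line and 1 peak list, so no difference is checked by replicates, and no p-value is given. The DUX4 and DUXC lines were both monoclonal, so these factors also differ in clone, and DUXC-ALT differs from both in clonality. No luciferase peak list was analysed here, and the lists do not give read depth.

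DUX4 and DUXC are double homeobox transcription factors. DUX4 is active in the cleavage-stage embryo, and its misplaced expression in skeletal muscle underlies facioscapulohumeral dystrophy. DUXC is the double homeobox gene of dogs and several other mammals, and the series asks how closely the canine proteins resemble human DUX4 in function. The 5 genes are not members of 1 pathway. USP37 encodes a deubiquitinase that in human cells removes ubiquitin from cyclin A. CTACK encodes a chemokine of the skin that draws T cells through the receptor CCR10, and its symbol in the RefSeq dog table is CCL27. TBC1D2B encodes a protein with the TBC domain of Rab GTPase-activating proteins. SERPINF1 encodes pigment epithelium-derived factor, a secreted serpin that restrains blood vessel growth, and NFIC encodes a nuclear factor I transcription factor needed for tooth root formation in mice.

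The USP37 site was the strongest of the 6. It lay on chromosome 37 from 25157903 to 25158429 in the build canFam3, in intron 6 of 24, 18191 bp downstream of the transcription start site (TSS) of transcript ENSCAFT00000023495.4. Its fold enrichment over the peak caller's local background was 21.4, which ranked 12 among the 6031 DUXC peaks. Its pileup, the authors' signal height at the peak, was 39 and ranked 159. Of the peaks with a higher pileup, 133 stood on raised local background, defined as more than 3 times the background floor of the list, and 25 did not. The local background at USP37 was 0.870 in units of pileup, which is 1.05 times that floor. The site thus combined a pileup in the upper 2.80% of the list with a background close to the lowest in it. Over all strong DUXC peaks without DUX4 the median local background was 1.02 (quartiles 0.853 and 1.36).

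The USP37 summit lay 18 bp from the 5′ end of a SINEC_Cf copy, a short interspersed element of the dog genome, that was 185 bp long (25158222 to 25158406, plus strand). The peak covered the whole copy and reached beyond it at both ends. SINEC_Cf held the summits of 3 of the 219 strong DUXC peaks without DUX4 (1.37%, exact Clopper-Pearson 95% interval 0.283 to 3.95%) and of 48 of the 547 with DUX4 (8.78%, 6.54 to 11.5%). In the 3 copies without DUX4 the summits lay 6, 18 and 26 bp from the 5′ end. In the 48 copies with DUX4 the median was 107 bp (quartiles 79.0 and 136), and 3 of the 48 summits lay within 26 bp of the 5′ end. Over all 218 DUXC summits in SINEC_Cf copies, weak peaks included, 40 lay within 26 bp and the median was 87.0 bp. The distance of 26 bp was set by the 3 sites themselves after their values were seen, so it does not set USP37 apart.

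The CTACK site lay on chromosome 11 from 51338847 to 51339291, between genes, 3256 bp upstream of the TSS of the 701 bp gene model. Its fold enrichment was 20.2 (rank 20) and its pileup 36 (rank 193), on a local background of 0.828, equal to the floor of the list. No repeat was recorded for it.

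TBC1D2B had 3 DUXC peaks, which 4.01% of the 2570 named genes with a DUXC peak reached or exceeded. The strongest lay in exon 11 of 12 on chromosome 3 (58229755 to 58230360), 40975 bp downstream of the TSS, with a fold enrichment of 19.9 (rank 21). Its pileup of 43 (rank 131) was the highest of the 6 strong sites, and its width of 606 bp the largest. A second strong peak (58272070 to 58272388) lay 735 bp upstream of the TSS, with a fold enrichment of 10.0 (rank 760) and a pileup of 21 (rank 971). The third DUXC peak, in intron 3 (58248798 to 58249227), was weak, with a fold enrichment of 4.28 (rank 5754) and a pileup of 12.

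The intron 3 site of TBC1D2B was the 1 place in the 5 genes where DUX4 was also found. The DUX4 peak (58248785 to 58249292) covered all 430 bp of the DUXC peak, their summits were 109 bp apart, and its DUX4 fold enrichment of 12.9 placed it in the upper 8.91% of the DUX4 list. Within this gene the strong DUXC sites had no DUX4 peak, which is how the gene was chosen. The weak DUXC site lay under a DUX4 peak that was high in its own list. With the strong side fixed by the choice, this contrast says nothing on how the factors relate. Fold enrichments of different lists are not on a common scale, so only the rank within each list is read here. A pair of strong DUXC peaks without DUX4 was found under 3 of the 134 gene symbols that had any (2.24%), TBC1D2B among them. A pair under 1 symbol need not lie at 1 gene. The pair of 5S_rRNA was on chromosomes 17 and X, and the peaks of NLRP12 began at 103352407 and 103552310 on chromosome 1.

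The SERPINF1 site lay just inside the gene on chromosome 9 (45891158 to 45891600), beginning 110 bp downstream of the TSS. Its fold enrichment was 14.4 (rank 114) and its pileup 33 (rank 233), and no repeat was recorded. The NFIC site on chromosome 20 (55969520 to 55969923) lay 639 bp downstream of the TSS, inside the gene, also with no repeat recorded. Its fold enrichment was 10.4 (rank 624) and its pileup 19 (rank 1352), the lowest pileup of the 6. Raised local background was found at none of the 6 sites, where the ratio to the floor ran from 1.00 at CTACK to 1.64 at SERPINF1. It was found at 3 of the 219 strong peaks without DUX4 (1.37%), at 1.28% of those with DUX4 and at 8.34% of all DUXC peaks. Local background was computed from pileup and fold enrichment, so a choice for high fold enrichment also favours low values.

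**Figure D1:**
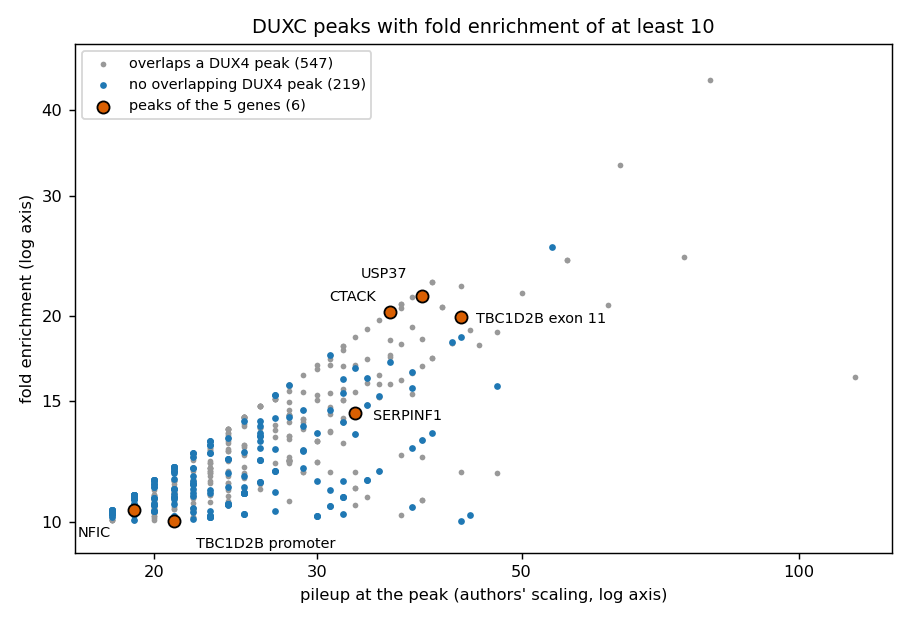
Pileup (horizontal) and fold enrichment (vertical), both on log axes, of the 766 DUXC peaks with a fold enrichment of at least 10. Grey points overlap a DUX4 peak (547), blue points do not (219), and orange points mark the 6 of these that belong to the 5 genes: USP37, CTACK and exon 11 of TBC1D2B stand near 20, SERPINF1 at 14.4, and NFIC and the TBC1D2B promoter next to the lower limit.

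The 6 strong peaks ran from 10.0 to 21.4 in fold enrichment, where all strong peaks without DUX4 ran to 25.3 and those with DUX4 to 44.3. Among the 137 strong peaks without DUX4 that had a gene symbol, those of USP37, CTACK and TBC1D2B exon 11 ranked 2, 3 and 4 by fold enrichment. Ahead of them stood an intron peak of CAPRIN1 (25.3) and just after them a peak near JMJD6 (18.6), a gene of an oxygenase that acts on RNA-processing proteins. SERPINF1 ranked 17, just after a peak near CERS4 (14.6, in a MER21C copy). NFIC ranked 109, between NLGN1 (10.5, in a MER21C copy) and HS6ST1 (10.4). The TBC1D2B promoter peak was last of the 137, at 10.03, just inside the limit, beside PENK at 10.05. Just outside it were peaks without DUX4 near CHRM2 (9.915), ZNF277 (9.889) and DCHS2 (9.883), so nothing separates the TBC1D2B promoter from weaker sites.

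Strong DUXC peaks without a DUX4 peak were a minority. They made up 219 of 766, or 28.6% (25.4 to 31.9%), while 44.3% of all DUXC peaks had no DUX4 overlap. All 6 strong peaks of the 5 genes had none, which is how the genes were chosen. The share without DUX4 went from 53.5% (51.2 to 55.9%) of DUXC peaks with a fold enrichment under 6 to 29.9% (26.5 to 33.6%) from 10 to 15. It was 20.5% (12.2 to 31.2%) from 15 to 20, and 3 of 20 peaks (3.21 to 37.9%) at 20 or more. Those 3 were USP37, CTACK and CAPRIN1. With strength taken by pileup, the share without DUX4 was 41.5% in the top 10% of DUXC peaks, near the 44.3% of all. The fall is thus described for fold enrichment only. In the DUX4 list, the peaks under the 547 shared sites had a median fold enrichment of 13.5 (quartiles 9.79 and 17.0). The lowest was 3.98, and 74.2% reached 10, against 23.2% of all DUX4 peaks.

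The nearest DUX4 peaks lay between 18425 and 84172 bp from these sites. From USP37 the gap to the nearest DUX4 peak was 84172 bp, to a peak that the authors' annotation puts in the promoter of VIL1, the villin gene, with a DUX4 fold enrichment of 9.54. From NFIC it was 79662 bp, to a peak near DOHH, a gene of hypusine synthesis (6.18). From SERPINF1 it was 41375 bp, to an intron of SMYD4, a SET and MYND domain gene (10.7). From CTACK it was 22297 bp. From TBC1D2B it was 18425 bp for exon 11, to the peak in intron 3 of the same gene, and 21788 bp for the promoter, to a peak near ENSCAFG00000033386.1 (8.52).

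Among all 219 strong DUXC peaks without DUX4, the median gap to the nearest DUX4 peak was 11580 bp (quartiles 4547 and 27717). Each of the 6 sites lay farther away than the median, but CTACK and both TBC1D2B sites lay below the upper quartile. USP37 ranked 5 and NFIC 6 from the farthest, SERPINF1 23, CTACK 66, and the TBC1D2B promoter and exon 67 and 75. A DUX4 peak lay within 1000 bp of 8.22% of the 219 peaks, within 5000 bp of 28.3% and within 50000 bp of 92.2%. None of the 6 sites had a DUX4 peak within 5000 bp, and those of USP37 and NFIC had none within 50000 bp, as was so for 17 of the 219 in all. USP37 had the highest fold enrichment of these 17, ahead of ENSCAFG00000033211.1 (16.8) and LMTK3 (15.4), while NFIC ranked 14.

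**Figure D2:**
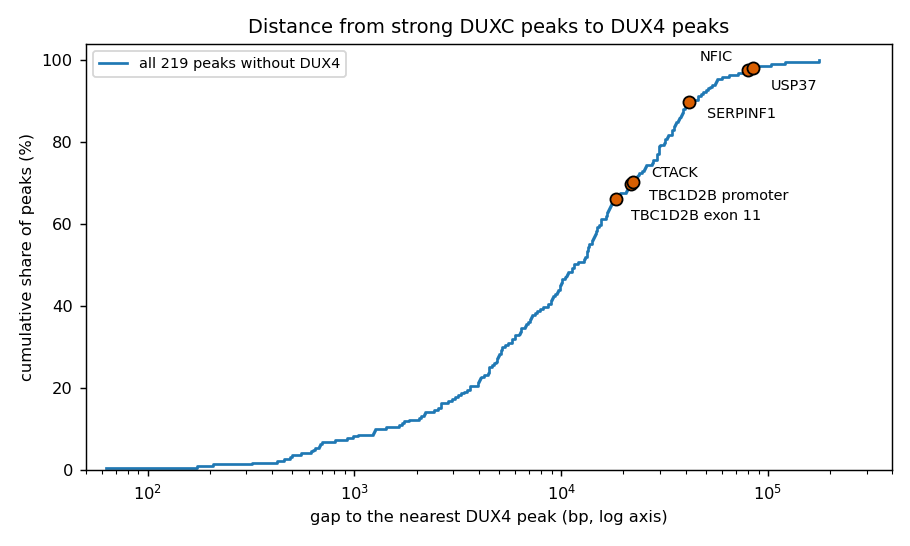
Cumulative share (vertical, %) of the 219 strong DUXC peaks without DUX4 by their gap to the nearest DUX4 peak (horizontal, bp, log axis). Orange points mark the 6 peaks of the 5 genes, all beyond the median of 11580 bp, with USP37 (84172 bp) and NFIC (79662 bp) near the upper end.

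The neighbourhoods differed in how many peaks they held. Within 100000 bp of the USP37 site there was 1 DUX4 peak and no other DUXC peak, and the same was so at NFIC. The CTACK site had 2 DUX4 peaks and 1 other DUXC peak in that range. SERPINF1 had 7 DUX4 peaks, the strongest at the PRPF8 promoter (15.1), and 1 other DUXC peak, in an intron of RPA1 in a MER21C copy (6.19). Exon 11 of TBC1D2B had 8 DUX4 peaks and 3 other DUXC peaks. Within 50000 bp the 6 sites had 0 (USP37), 1 (CTACK), 1 (TBC1D2B exon 11), 7 (TBC1D2B promoter), 3 (SERPINF1) and 0 (NFIC) DUX4 peaks. The median was 3 over the 219 strong peaks without DUX4 (quartiles 1 and 5) and 4 over the 547 with DUX4 (3 and 6). The TBC1D2B promoter was the 1 site above that upper quartile of 5, so a neighbourhood poor in DUX4 peaks was not common to all 6. The DUX4 peaks beside it lay mainly at IDH3A, a gene of the citric acid cycle.

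**Figure D3:**
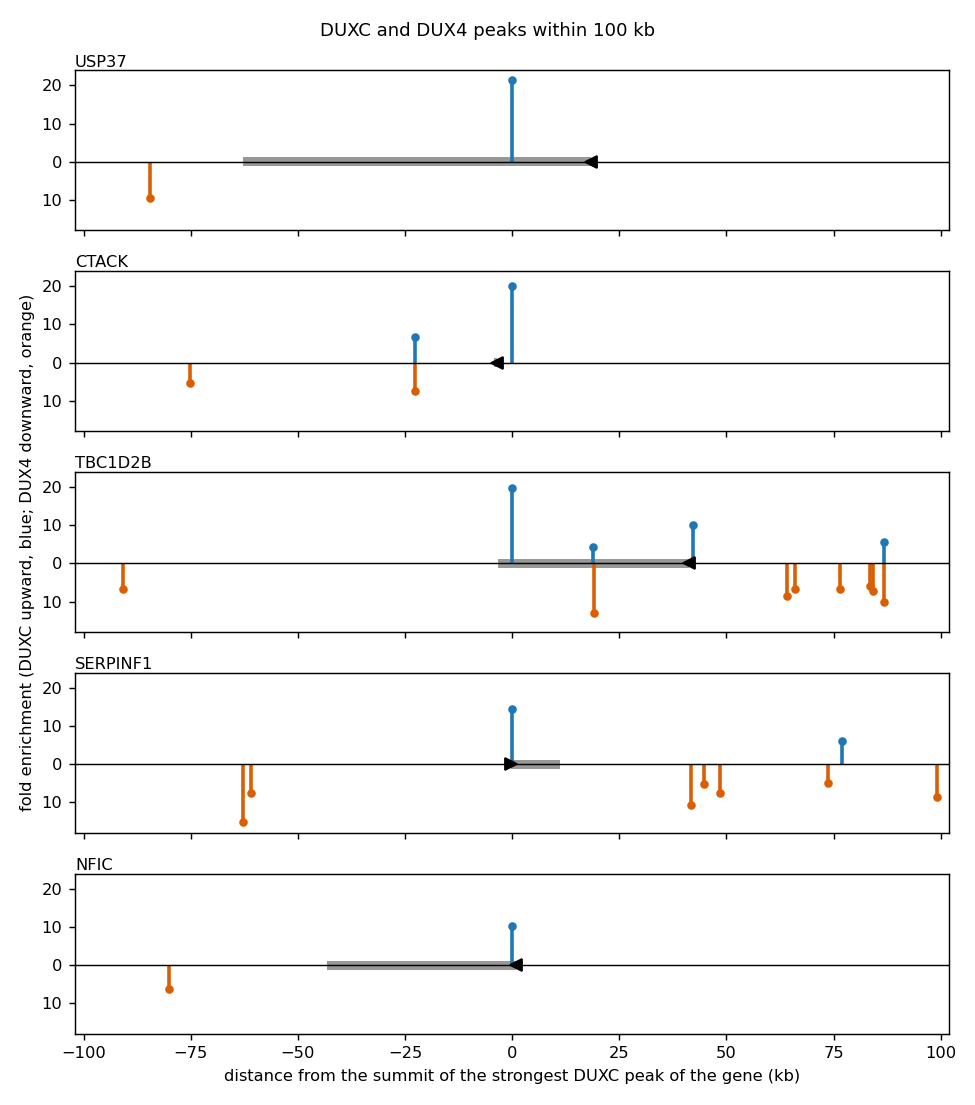
DUXC peaks (blue, upward) and DUX4 peaks (orange, downward) within 100 kb of the strongest DUXC peak of each gene, placed by summit, with height giving fold enrichment in their own list. Grey bars are the named gene and black arrowheads its start and direction. No orange line meets the central blue line in any panel; in the TBC1D2B panel the weak DUXC peak of 4.28 sits over the DUX4 peak of 12.9.

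Few DUX4 peaks were assigned to the 5 genes themselves. USP37, CTACK, SERPINF1 and NFIC had 0 DUX4 peaks by symbol and 0 in the gene body or within 5000 bp of it. TBC1D2B had the 1 peak in intron 3. Among the 134 named genes with a strong DUXC peak without DUX4, 29 (21.6%) had no DUX4 peak of the same symbol, and 78.4% had 1 or more. Over all 10804 named genes, 97.5% had a DUX4 peak at some distance, 23.8% a DUXC peak and 2.47% a DUXC-ALT peak. A gene nearest to no peak is not named in the lists, so every gene without DUX4 is counted only because a canine factor had a peak there, and 97.5% is an upper estimate. None of the 5 genes had a DUXC-ALT peak. The nearest one was 1127970 bp from CTACK, 1168304 bp from SERPINF1 and 2096563 bp or more from the other sites.

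Of the 6 sites, 3 (SERPINF1, NFIC and the TBC1D2B promoter) lay within 1000 bp of a TSS. Such places held 7.76% (4.59 to 12.1%) of the 219 strong peaks without DUX4, 6.03% (4.19 to 8.37%) of the 547 with DUX4 and 4.66% of all DUXC peaks. Within 5000 bp of a TSS, CTACK included, were 4 of the 6 sites and 18.3% (13.4 to 24.0%) of the 219. All 6 have a gene symbol by choice, against 62.6% of the 219, and peaks with a symbol need not be placed like the rest. An exon held 1 of the 6 (TBC1D2B), and 4.57% (2.21 to 8.24%) of the 219. No repeat was recorded at 5 of the 6 sites, all but USP37, and at 29.7% (23.7 to 36.2%) of the 219. With 6 sites picked by hand these counts describe the 5 genes and do not show that they differ from the others.

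Summits lay in some recorded repeat at 46.1% (39.4 to 53.0%) of the 219 and 41.3% (37.2 to 45.6%) of the 547, with intervals that overlap, while single repeat classes had other shares. Long terminal repeats (LTRs) of retroviruses held the summits of 22.4% (17.0 to 28.5%) of the strong peaks without DUX4 and 10.2% (7.83 to 13.1%) of those with DUX4. SINEs held 26 of the 219 (11.9%, 7.90 to 16.9%) and 137 of the 547 (21.5 to 28.9%). LINEs held 10.5% (6.77 to 15.3%) and 5.12% (3.43 to 7.31%), with intervals that overlap at their ends. Overlap of intervals, here and for all repeats together, does not show that the shares are equal. None of the 5 genes' strong sites was in an LTR, although CERS4 and NLGN1, their neighbours by fold enrichment, had MER21C copies. A DUXC-ALT peak overlapped 7.76% of the strong DUXC peaks without DUX4 and 2.56% (1.41 to 4.26%) of those with DUX4, and none of the 6. Widths of the 6 sites ran from 319 bp (TBC1D2B promoter) to 606 bp, around a median of 444 bp, against 369 bp (quartiles 340 and 406) for the 219. These intervals cover counting error only.

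**Figure D4:**
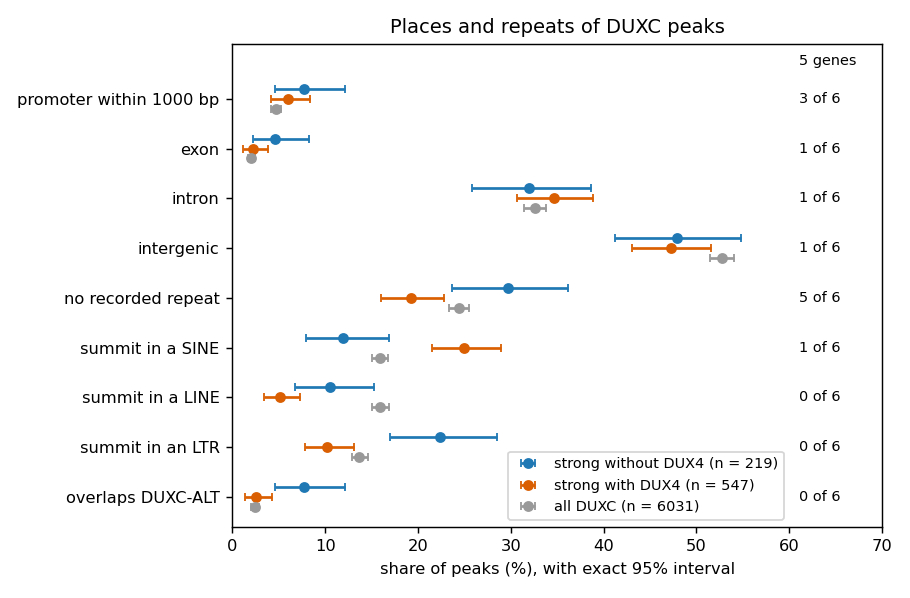
Share of DUXC peaks (horizontal, %, with exact 95% intervals) by place and repeat, for strong peaks without DUX4 (blue, 219), strong peaks with DUX4 (orange, 547) and all DUXC peaks (grey, 6031). Counts for the 6 strong peaks of the 5 genes are printed at the right: 3 of 6 at promoters, 5 of 6 with no recorded repeat and 0 of 6 in LTRs.

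Relatives of the 5 genes were compared by family, among genes named in the lists. Of 39 ubiquitin-specific proteases, a family counted here without the USP17L genes, 38 had a DUX4 peak (97.4%, against 97.5% of all named genes). USP37 was the 1 without, and it was chosen for its missing DUX4 overlap. DUXC peaks were found at 10 of them (25.6%, against 23.8% of all named genes). A further strong one, in intron 6 of USP4, had a fold enrichment of 10.5, lay in a MER21C copy and had no DUX4 overlap either. Among the USP17L genes, USP17L3 had a strong DUXC peak at its TSS (16.3) that overlapped DUX4. That peak, with a pileup of 115, stood on raised local background (6.12, where the floor of the list was 0.828). The strongest DUX4 peak of the family was in intron 3 of USP25 (16.9), also in a MER21C copy, with no DUXC peak over it. At USP5 the DUXC peak (8.46) lay 57 bp upstream of the TSS and overlapped DUX4, so a promoter site of this family was shared.

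Of 23 TBC domain genes, 21 had a DUX4 peak (91.3%, against 97.5% of all named genes) and 5 a DUXC peak (21.7%). Those without DUX4, TBC1D10C and TBC1D22A, were named only through a DUXC peak. TBC1D3G, among the 5, had only weak DUXC peaks, on chromosomes 4 and 22, so its symbol covers more than 1 locus. Besides TBC1D2B, TBC1D4, a Rab GTPase-activating protein of insulin-stimulated glucose uptake, had a strong DUXC peak (11.9), and it overlapped DUX4. The strongest DUX4 peak of the family, 2871 bp upstream of TBC1D10A (17.6, in an MLT1K copy), had no DUXC peak. Of 24 serpins, 21 had a DUX4 peak (87.5%) and 4 a DUXC peak (16.7%). SERPINF1, chosen for its missing DUX4 overlap, was among the serpins without DUX4. SERPINA4 had a strong DUXC peak 9536 bp upstream of its TSS (10.3) without DUX4, and SERPINA3 a peak of 7.65, also without. The strongest DUX4 peak among serpins was in intron 1 of SERPINB5 (15.7).

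Of the 4 nuclear factor I genes, NFIC and NFIX had DUXC peaks and no DUX4 peak, and NFIA and NFIB had DUX4 peaks and no DUXC peak. The NFIX peak, 8226 bp upstream of the nearest TSS in an intron, had a fold enrichment of 9.85, just short of strong. The strongest DUX4 peak of this family was in intron 2 of NFIB (12.3), 82972 bp from the TSS. Of all 2570 named genes with a DUXC peak, 253 (9.84%) had no DUX4 peak. NFIC was chosen for its missing DUX4 overlap, and a gene without DUX4 is named in the lists only through a canine factor, so part of this split is fixed. From the chemokine ligands and the CTACK receptor gene CCR10, the lists named 18 genes. Of these, 17 had a DUX4 peak (94.4%, against 97.5% of all named genes) and 3 a DUXC peak (16.7%). The 1 without DUX4 was CTACK, which was chosen for its missing DUX4 overlap. Besides CTACK, DUXC peaks were found at CCL14 (9.19, in an L1_Canis1 copy) and CXCL13 (5.93), both without DUX4 overlap. DUXC-ALT had 0 peaks in all 5 families, where 2.47% of all named genes had one.

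Within 5000 bp of a TSS, DUX4 peaks were found at 12 ubiquitin-specific proteases, 9 TBC domain genes, 5 serpins, 1 nuclear factor I gene and 5 chemokine genes, where the share over all named genes was 38.3%. DUXC peaks were found there at 1 (without the USP17L genes), 2, 1, 1 and 1 genes in the same order, beside 5.48% over all named genes. The members SERPINF1, NFIC and CTACK were the 1 gene of their families, and TBC1D2B 1 of the 2, with USP5 in the family of USP37. Over all named genes 0.463% had a DUXC-ALT peak in that range.

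**Figure D5:**
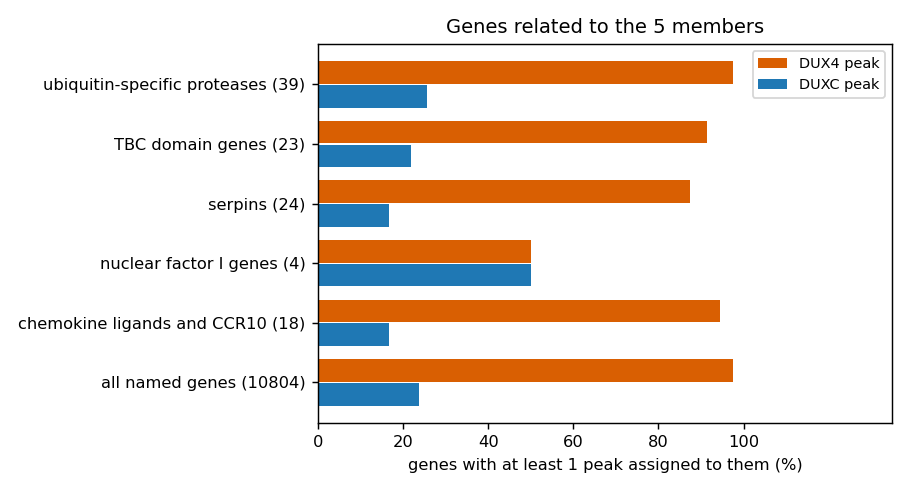
Share (horizontal, %) of named genes with at least 1 DUX4 peak (orange) or DUXC peak (blue) assigned to them, for the 5 families and all 10804 named genes, with the number of genes in brackets. The nuclear factor I genes had 2 of 4 in each list; the other families stood between 87.5 and 97.4% for DUX4 and between 16.7 and 25.6% for DUXC.

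The absence of a DUX4 peak means that none was called. The lowest pileup in the DUX4 list was 6.42 and the lowest −log10 q was 2.03, not necessarily at the same peak. Any DUX4 signal below the caller's limit at these sites is not recorded in the list. What the different clones add to sites found with DUXC alone was not tested, since each factor has 1 line.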

How the data were processed

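Peaks were taken as deposited, with 1 list per factor whose peak names all carry the title of 1 library. Tools named, without role or order, in the submitters' processing notes are MACS2 2.1.0, BWA 0.7.10 and CASAVA, and the build is canFam3. Control library, threshold and filters are not given in the sources used here. The deposited pileup was read as signal height at the summit, in a scaling that differs between lists. The fold enrichment deposited by the authors was read as a ratio over local background with 1 added to each, so local background was (pileup + 1) / fold enrichment − 1, and its floor the percentile 1 of the list. The deposited −log10 q-value (and p-value) of a peak comes from the caller. Distances to TSSs and genes are other deposited values, per the file headers.

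Overlap meant at least 1 bp, and gaps ran between peak edges. The overlap code was tested on simulated positions: 503 of 503 planted gaps were recovered. Python 3.11.15, numpy 2.4.6, pandas 2.3.3, scipy 1.17.1 and matplotlib 3.10.9 were used. The 5 genes, the families and the limit of 10 were chosen with earlier results of these data known. Named genes were the 5 members, their neighbours by fold enrichment, the genes of the nearest DUX4 peaks, and some family members. Those family members had a strong DUXC, a DUXC-ALT or the strongest DUX4 peak. CAPRIN1, LMTK3, USP5, USP17L3, SERPINA3, NFIX, CCL14, CXCL13, NLRP12, 5S_rRNA and the genes at the limit were named after their values were seen. The same holds for PRPF8, RPA1, IDH3A, TBC1D3G, TBC1D10C and TBC1D22A. No sequence is shown, since no canFam3 genome was used here. Some neighbouring genes that the rule would name are not reported here.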

Additional observations from a re-analysis of the deposited data

How the results depend on the processing

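The 6 strong DUXC peaks of the 5 genes stayed without a DUX4 peak under each other rule for overlap. These rules asked for 50% overlap of both peaks, summits within 100 bp, or a DUX4 peak within 1000 bp. The remaining rules held the DUX4 list to a fold enrichment of at least 10 or a −log10 q of at least 5. None of them could change the result, because no DUX4 peak lay closer than 18425 bp to any of the 6. At a fold enrichment of at least 15, 3 strong peaks were left (USP37, CTACK and TBC1D2B exon 11), all 3 without DUX4, as follows from the higher limit. In the top 10% by pileup 4 were left. The share of strong DUXC peaks without DUX4 was 32.5% with summits within 100 bp, 47.0% with DUX4 fold enrichment of at least 10, 19.4% at a DUXC fold enrichment of at least 15 and 41.5% in the top 10% by pileup, against 28.6%. Counting DUX4 peaks within 50000 bp of the strong sites, whatever their gene, gave 11 in place of 1. The median gap to a DUX4 peak of 31836 bp became 79529 bp with DUX4 fold enrichment of at least 10, since fewer peaks remain. Of 26 values under alternative settings, 18 stayed within 1.5 times or, for the share, within its interval. Those 18 include the values that could not change. No paired analysis was possible because each factor has 1 library. With 1 library per factor and no read depth, a missing DUX4 peak cannot be told apart from one below the caller's limit.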
